A study of Mus musculus with 9 samples.

Results

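Astrocyte marker genes were followed across the forebrains of mice given clozapine, haloperidol or no drug. The set held 10 genes chosen by name: Gfap, Aqp4, Slc1a2, Slc1a3, Glul, S100b, Aldoc, Gja1, Vim and Sparcl1. Probe sets were taken if the platform annotation gave them 1 of these symbols and no other. This found 9 of the 10 genes, with 13 of the 12422 probe sets that are not Affymetrix controls. Where a gene has several probe sets, the ending of the Affymetrix identifier is given in brackets. Slc1a3, a glutamate transporter of astrocytes, matched no probe set, so its expression was not analysed here and only its promoter window was searched. The clozapine group received 12 mg/kg/day of this atypical antipsychotic in the drinking water for 4 weeks. The haloperidol group received 1.6 mg/kg/day of this typical antipsychotic by the same route for 4 weeks. The control group received no drug. All groups were male C57BL mice of 4 weeks of age per the labels, caged singly and acclimatised for 2 weeks. Each group held 3 animals out of 10, with 1 animal per Affymetrix U74Av2 array and no pooling. The doses of the drugs differ, so a difference between clozapine and haloperidol compares these regimens.

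Astrocytes are glial cells that surround synapses and cover blood vessels with their end feet. They clear glutamate through transporters and turn it into glutamine, which neurons use again. They also move water through aquaporin channels at the end feet and pass ions and small molecules to each other through connexin channels. Gfap, the glial filament protein, is widely used as a sign of reactive astrocytes. The RNA came from whole forebrain tissue of 1 hemisphere, in which fewer cells of a type and less RNA per cell cannot be told apart.

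The promoters of 3 members are shown, Glul and Gja1 because a probe set of each followed the gap between 3′ and 5′ control probe sets over the arrays, and Gfap as the defining marker. The windows run from 250 bases before to 50 after the annotated start in RefSeq's GRCm38.p6 and are written 5′ to 3′ on the gene's strand. Capitals mark 1 matched motif in each window. In the Glul window at chr1:153899679-153899978 on the plus strand, capitals mark a GC box, found as the reverse complement of CCGCCC and starting 33 bases before the start. In the Gja1 window at chr10:56377050-56377349 on the plus strand, capitals mark an AP-1 motif starting 19 bases before the start. In the Gfap window at chr11:102897151-102897450 on the minus strand, capitals mark a STAT motif starting 2 bases before the start.
Glul: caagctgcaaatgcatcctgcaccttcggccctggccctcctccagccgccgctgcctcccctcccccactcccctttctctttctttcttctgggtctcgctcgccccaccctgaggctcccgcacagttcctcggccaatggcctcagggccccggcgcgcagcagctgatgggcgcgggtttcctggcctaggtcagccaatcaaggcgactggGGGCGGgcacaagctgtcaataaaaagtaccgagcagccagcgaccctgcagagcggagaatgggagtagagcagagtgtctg
Gja1: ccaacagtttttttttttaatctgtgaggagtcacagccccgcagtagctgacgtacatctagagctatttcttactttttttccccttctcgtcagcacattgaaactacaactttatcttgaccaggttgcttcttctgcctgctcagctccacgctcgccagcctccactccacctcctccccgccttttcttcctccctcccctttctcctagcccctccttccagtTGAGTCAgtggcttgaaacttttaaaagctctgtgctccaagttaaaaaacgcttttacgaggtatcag
Gfap: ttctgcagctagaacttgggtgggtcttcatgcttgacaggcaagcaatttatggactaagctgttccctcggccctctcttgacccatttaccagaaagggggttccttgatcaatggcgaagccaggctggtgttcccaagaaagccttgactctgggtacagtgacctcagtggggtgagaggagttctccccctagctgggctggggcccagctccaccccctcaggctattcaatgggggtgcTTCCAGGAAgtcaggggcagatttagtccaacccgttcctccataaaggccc
Motifs were searched in 9 windows from 8 members, with Aldoc represented by 2 starts, and Aqp4 and Sparcl1 were not searched here. The STAT motif TTCNNNGAA was in 3 of the 9 windows and in 8.33% of 32544 mouse promoter windows of the same length. The AP-1 motif TGANTCA was in 1 of 9, against 7.79% of all windows. The GC box CCGCCC was in 3 of 9, against 35.9%, and the TATA box TATAAA in 2 of 9, against 13.6%. The full nuclear factor I palindrome was in 0 of 9, against 0.0369%, and its shorter site TTGGC in 5 of 9, against 46.9%. Both strands were searched, and a full nuclear factor I motif contains the shorter site. These matches describe letters in the windows and say nothing about binding.

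All values below are log2 values of the deposited table, and each difference is a log2 difference between group means with its standard error. Array medians lay between 4.01 and 4.21. Probe sets were tested if their average over the 9 arrays was above 3.448, which kept 7453 probe sets and 11 of the 13 member probe sets, from 8 genes. The array labelled control 3 stood furthest from the others on the leading principal component, which held 50.1% of the variance. Its score was 37.5. Clozapine 1, haloperidol 3 and control 1, an array from each group, lay on the opposite side, at -17.6, -19.8 and -19.6. The remaining arrays lay between these and control 3, so this component did not follow the treatments. The part of this split in the members' values was not tested. Neuron markers on control 3 averaged 0.717 below their 9-array means, against deviations from -0.224 to 0.402 on the other 8 arrays. Of 9 neuron markers, 3 had their lowest value on control 3. Camk2a at -3.65 and Syt1 at -1.87, the 2 lowest there, carried most of this mean. Without them, a choice made after their values were seen, the other 7 averaged -0.13 on control 3. The other arrays then spanned -0.16 to 0.16. The median over all 9 markers was -0.221 on control 3, against -0.149 to 0.365 on the other arrays. Mean deviations of the neuron markers lay from -0.205 to 0.402 on the clozapine arrays and from -0.134 to 0.249 on the haloperidol arrays. On the control arrays they lay from -0.717 to 0.312. Differences from control are therefore given with and without control 3 for each tested member. The part of these markers in the members' values was not tested.

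**Figure D1:**
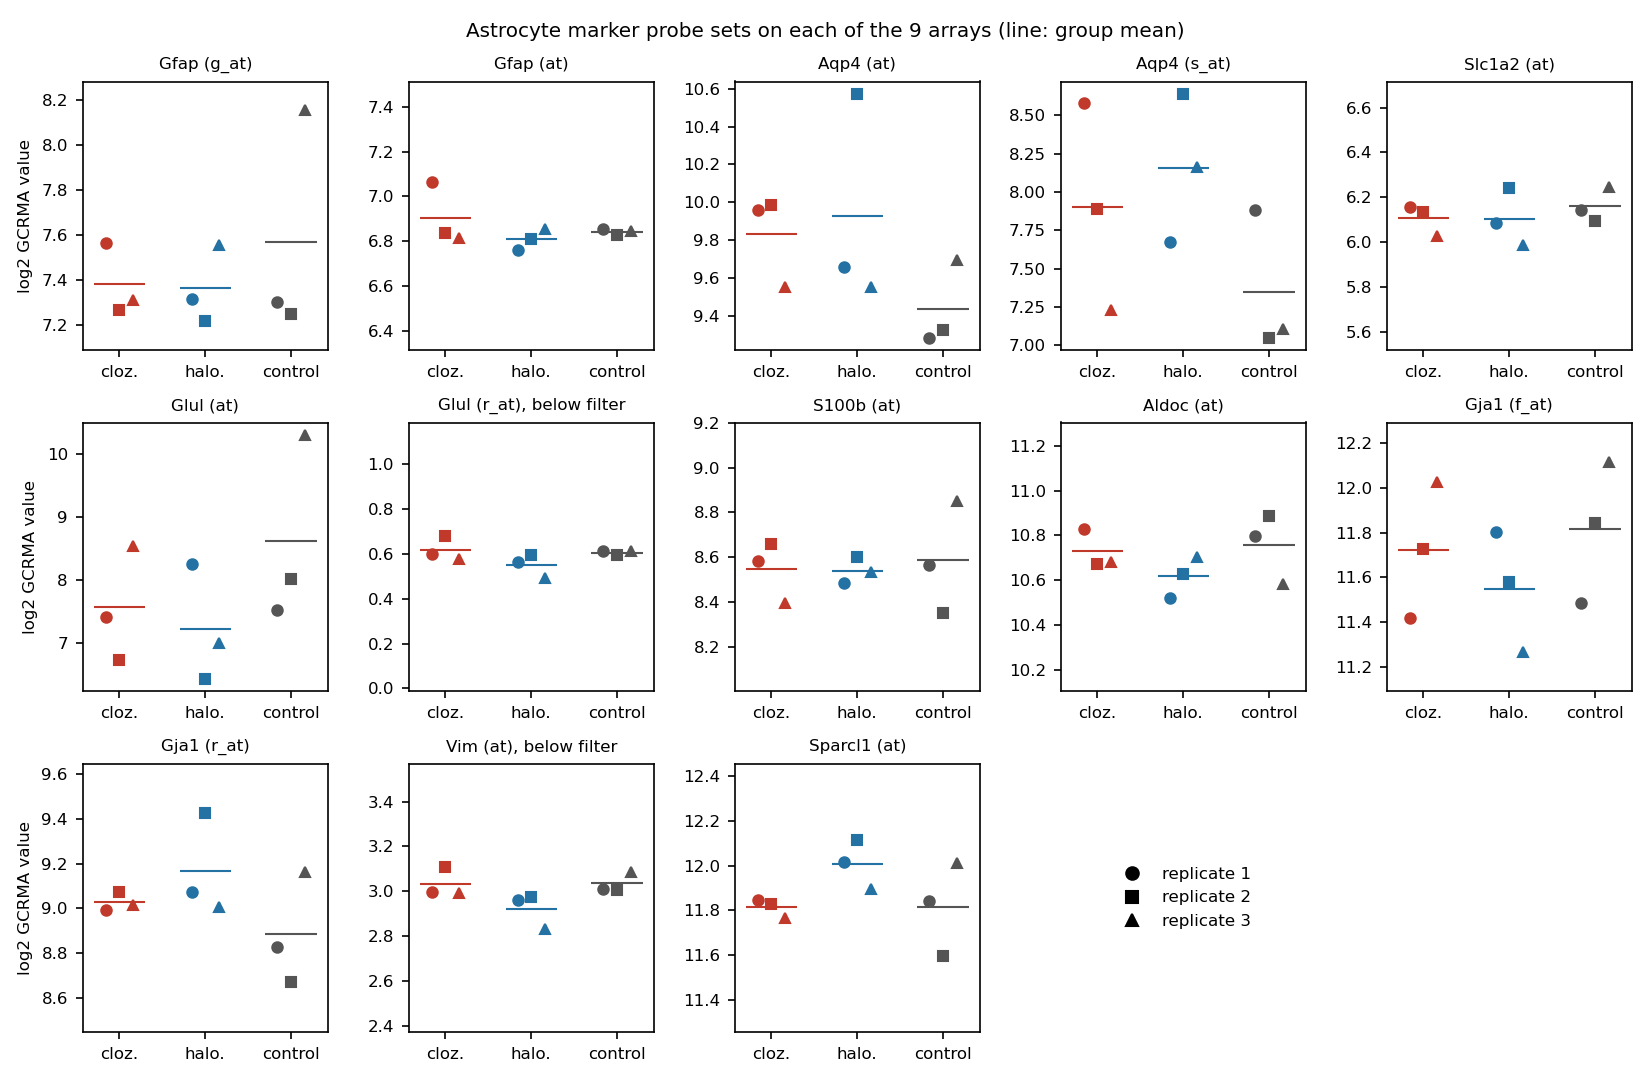
Log2 values of the 13 astrocyte marker probe sets, 1 panel each with its own vertical axis, on the 3 clozapine, 3 haloperidol and 3 control arrays. Points are arrays and lines are group means. Glul (at) ranges from 6.42 to 10.31, and control 3 holds its highest value.

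No astrocyte marker passed the test in any comparison. Among the 11 tested probe sets, 0 had an adjusted p under 0.05 in limma's test for clozapine against control, where 0% of all 7453 probe sets passed. The same held for haloperidol against control and for clozapine against haloperidol, each with 0 of 11 members and 0% of all tested. At an unadjusted p under 0.05, 0 of 11 members passed in each comparison, against 0.939%, 9.12% and 3.64% of all tested probe sets in the same order. The lowest adjusted p of a member was 1 for clozapine against control, 0.548 for haloperidol against control and 0.929 for clozapine against haloperidol. In the moderated F test over the 3 groups the lowest unadjusted p of a member was 0.171, for Aqp4 (s_at), where 3.37% of all tested had an unadjusted p under 0.05.

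Counted by gene, with each gene at its probe set of highest average, 1 of 8 members was above control with clozapine and 7 were below, with a median difference of -0.049. With haloperidol 2 of 8 were above control and 6 below, with a median of -0.098. The medians over all tested probe sets were -0.0013 for clozapine minus control and -0.018 for haloperidol minus control. Between clozapine and haloperidol 6 of 8 were above and 2 below, with a median of 0.012, against 0.026 over all tested. Without control 3, 5 of 8 were above control with clozapine and 3 below, with a median of 0.074. With haloperidol 4 were above and 4 below, with a median of 0.034. The medians over all tested probe sets were then -0.014 for clozapine minus control and -0.052 for haloperidol minus control. The direction of both member medians against control thus turned with 1 array. Centring each array on its median moved the median of all tested differences from -0.018 to 0.085 for haloperidol against control and from 0.026 to -0.073 for clozapine against haloperidol.

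**Figure D2:**
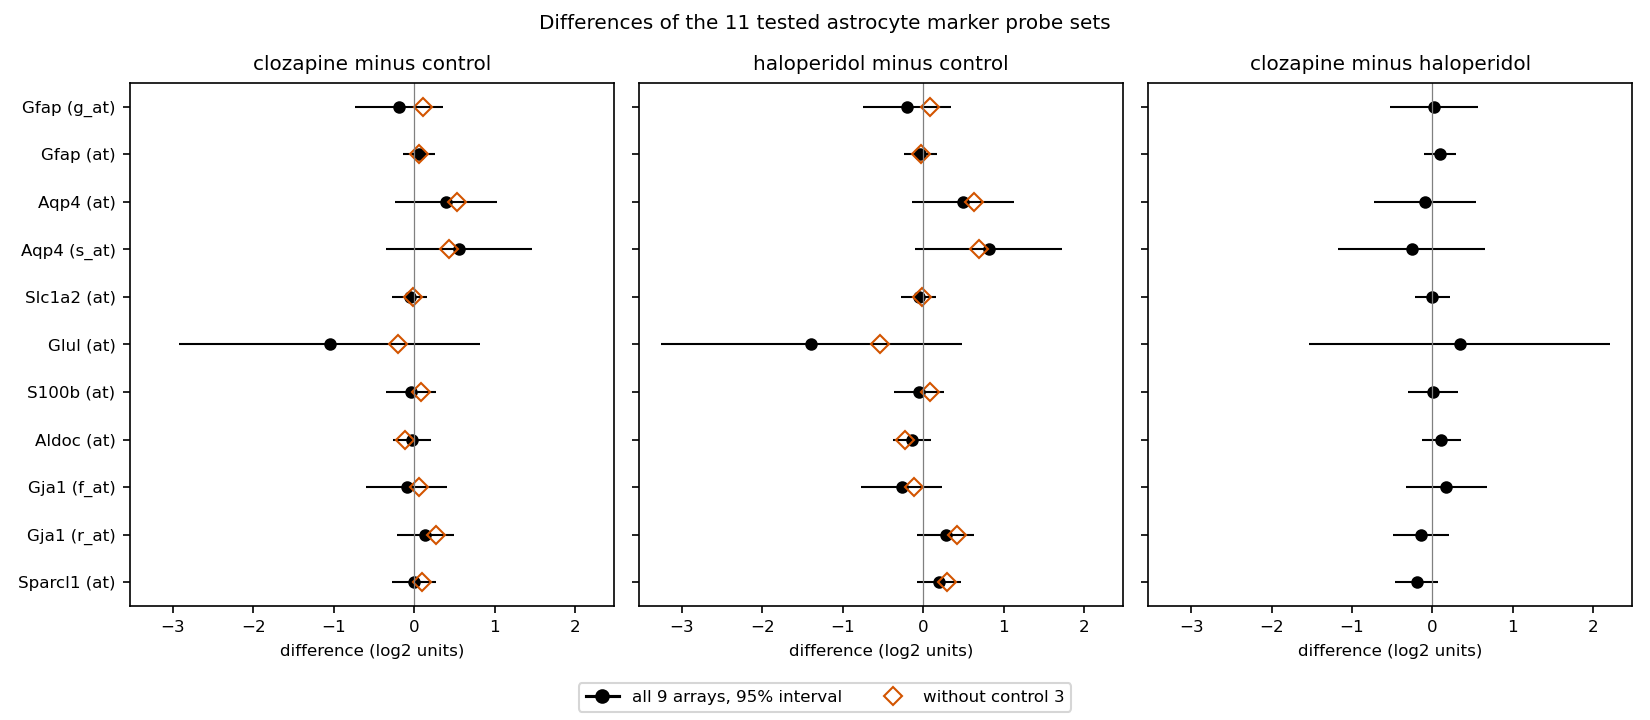
Log2 differences of the 11 tested astrocyte marker probe sets in the 3 comparisons. Filled circles with lines are differences over all 9 arrays with 95% intervals, and open diamonds are differences without control 3. Every interval includes 0, and Glul has the widest, from -3.26 to 0.48 for haloperidol minus control.

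Glutamate handling was measured through Slc1a2, the main glutamate transporter of forebrain astrocytes, and Glul, glutamine synthetase, which makes glutamine from glutamate. Glul (at) had 7.42, 6.72 and 8.54 on the clozapine arrays, 8.25, 6.42 and 6.99 on the haloperidol arrays and 7.52, 8.01 and 10.31 on the control arrays. Control 3 was the highest of all 9 arrays, and the groups overlapped. The difference was -1.05 ± 0.81 for clozapine minus control, a fold of 0.483 with a 95% interval from 0.132 to 1.76. It was -1.39 ± 0.81 for haloperidol minus control, a fold of 0.382 with an interval from 0.104 to 1.39. Of the 7453 differences, this was the second lowest for clozapine minus control and the lowest for haloperidol minus control. Neither passed limma's test, with an unadjusted p of 0.232 and an adjusted p of 1 for clozapine, and 0.125 and 0.614 for haloperidol. The residual SD of 1.15 was higher than that of 99.4% of tested probe sets. Without control 3 the differences were -0.20 ± 0.64 for clozapine minus control and -0.54 ± 0.64 for haloperidol minus control. Clozapine and haloperidol differed by 0.34 ± 0.81, less than the spread within either group.

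The other Glul probe set, (r_at), was below the filter and had values from 0.49 to 0.68 on the 9 arrays. Its correlation with the (at) probe set over the 9 arrays was 0.0072, and -0.21 without control 3. Slc1a2 had 6.16, 6.13 and 6.02 on the clozapine arrays, 6.09, 6.24 and 5.99 on the haloperidol arrays and 6.14, 6.09 and 6.25 on the control arrays. All groups overlapped within a range of 0.26 log2 units. The difference was -0.055 ± 0.093 for clozapine minus control, with a 95% interval from -0.27 to 0.16. For haloperidol minus control it was -0.056 ± 0.093, with an interval from -0.27 to 0.16. For this probe set and the deposited scaling, these intervals run between folds of 0.829 and 1.12 under either drug, given 3 arrays a group. Its range over the arrays was at the 7.4 percentile of tested probe sets, and whether the probe set responds weakly was not tested. Clozapine minus haloperidol was 0.0011 ± 0.093. Without control 3 the differences from control were -0.013 for clozapine and -0.014 for haloperidol. Centring the arrays turned the sign for haloperidol minus control, to 0.047, and for clozapine minus haloperidol, to -0.098.

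Aqp4, the water channel of astrocyte end feet, was above control under both drugs on both of its probe sets without passing the test. Aqp4 (at) had 9.96, 9.99 and 9.55 on the clozapine arrays, 9.66, 10.57 and 9.55 on the haloperidol arrays and 9.28, 9.32 and 9.70 on the control arrays. Control 1 and control 2 lay below all 6 drug arrays, and control 3 lay among them. The differences were 0.40 ± 0.27 for clozapine minus control and 0.49 ± 0.27 for haloperidol minus control, folds of 1.32 and 1.41. In limma the unadjusted p was 0.184 and the adjusted p 1 for clozapine, and 0.110 and 0.6 for haloperidol. Aqp4 (s_at) had 8.58, 7.89 and 7.23 on the clozapine arrays, 7.67, 8.64 and 8.16 on the haloperidol arrays and 7.89, 7.05 and 7.11 on the control arrays. Here control 1 lay within both drug groups, control 2 and control 3 lay below all drug arrays, and the spread within the clozapine group was 0.68 (SD, n = 3). Clozapine minus control was 0.55 ± 0.39 and haloperidol minus control was 0.81 ± 0.39, folds of 1.47 and 1.76. The second had the lowest unadjusted p of any member, 0.0733, and an adjusted p of 0.548. Haloperidol 2 held the highest value of both Aqp4 probe sets, and their correlation over the 9 arrays was 0.66, and 0.71 without control 3. Without control 3 the differences of the (at) probe set were 0.53 ± 0.30 for clozapine and 0.63 ± 0.30 for haloperidol. Those of the (s_at) probe set were then 0.43 ± 0.45 for clozapine and 0.69 ± 0.45 for haloperidol.

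Gja1, a connexin of astrocyte gap junctions, had a pair of probe sets that did not follow each other, with a correlation of 0.043 over the 9 arrays and -0.12 without control 3. Gja1 (f_at) had 11.42, 11.73 and 12.02 on the clozapine arrays, 11.80, 11.58 and 11.27 on the haloperidol arrays and 11.49, 11.84 and 12.11 on the control arrays. The groups overlapped, with control 3 highest and haloperidol 3 lowest. The differences were -0.091 ± 0.22 for clozapine minus control and -0.27 ± 0.22 for haloperidol minus control. Without control 3 they were 0.059 for clozapine and -0.12 for haloperidol. Gja1 (r_at) had 8.99, 9.07 and 9.02 on the clozapine arrays, 9.07, 9.42 and 9.00 on the haloperidol arrays and 8.83, 8.67 and 9.16 on the control arrays. The 6 drug arrays lay above control 1 and control 2, and haloperidol 2 was highest. This probe set gave differences of opposite sign to the other, 0.14 ± 0.15 for clozapine minus control and 0.28 ± 0.15 for haloperidol minus control. Without control 3 they were 0.28 ± 0.14 for clozapine and 0.42 ± 0.14 for haloperidol, and the haloperidol difference had an unadjusted p of 0.0189 and an adjusted p of 0.538 in limma. In the Affymetrix naming scheme an f marks probes that may match a family of transcripts and an r marks a set for which some design rules were dropped.

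The filament genes were Gfap and Vim, the intermediate filament vimentin. Gfap (g_at) had 7.56, 7.26 and 7.31 on the clozapine arrays, 7.31, 7.21 and 7.56 on the haloperidol arrays and 7.30, 7.25 and 8.16 on the control arrays. Control 3 was above every other array, which otherwise spanned 0.35 log2 units. The differences were -0.19 ± 0.24 for clozapine minus control and -0.21 ± 0.24 for haloperidol minus control. Both turned positive without control 3, to 0.11 ± 0.14 for clozapine and 0.088 ± 0.14 for haloperidol. Gfap (at) had 7.06, 6.84 and 6.82 on the clozapine arrays, 6.76, 6.81 and 6.85 on the haloperidol arrays and 6.86, 6.83 and 6.85 on the control arrays. The control arrays were close to each other here, with an SD of 0.014 (n = 3), and control 3 lay between the other controls. The difference was 0.063 ± 0.088 for clozapine minus control and -0.035 ± 0.088 for haloperidol minus control. Without control 3 it was 0.064 for clozapine and -0.034 for haloperidol. For haloperidol minus control the 95% interval ran from -0.24 to 0.17, and centring the arrays turned the sign, to 0.069. The high value of control 3 on the (g_at) probe set was therefore not seen on the other Gfap probe set.

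Vim was below the filter and entered no test. It had 2.997, 3.11 and 2.99 on the clozapine arrays, 2.96, 2.98 and 2.83 on the haloperidol arrays and 3.01, 3.01 and 3.09 on the control arrays. Its haloperidol arrays lay wholly below the control arrays and wholly below the clozapine arrays. Among the 4969 probe sets below the filter, 88.4% had haloperidol wholly below control and 83.0% had clozapine wholly above haloperidol, so the Vim pattern was that of most low probe sets.

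S100b, a calcium-binding protein that astrocytes secrete, had 8.59, 8.66 and 8.39 on the clozapine arrays, 8.49, 8.60 and 8.53 on the haloperidol arrays and 8.56, 8.35 and 8.85 on the control arrays. The control arrays enclosed all 6 drug arrays. The differences were -0.043 ± 0.13 for clozapine minus control and -0.049 ± 0.13 for haloperidol minus control. Both turned positive without control 3, to 0.088 ± 0.12 for clozapine and 0.082 ± 0.12 for haloperidol. Aldoc, the brain aldolase of glycolysis, had 10.83, 10.67 and 10.68 on the clozapine arrays, 10.52, 10.63 and 10.70 on the haloperidol arrays and 10.80, 10.89 and 10.58 on the control arrays. Control 3 was the lowest of the control arrays, and the groups overlapped. The differences were -0.028 ± 0.10 for clozapine minus control and -0.14 ± 0.10 for haloperidol minus control. Without control 3 the clozapine difference was -0.11 ± 0.10 and the haloperidol difference -0.22 ± 0.10, the second with an unadjusted p of 0.0611 and an adjusted p of 0.538.

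Sparcl1, a secreted matrix protein that astrocytes release at synapses, had 11.85, 11.83 and 11.76 on the clozapine arrays, 12.01, 12.12 and 11.89 on the haloperidol arrays and 11.84, 11.59 and 12.01 on the control arrays. All clozapine arrays lay below all haloperidol arrays, and the control arrays overlapped with both. This was the 1 tested member of 11 whose clozapine and haloperidol groups did not overlap, against 17.1% of all tested probe sets in either direction and 1.96% with clozapine lower. Clozapine minus haloperidol was -0.19 ± 0.12, with an unadjusted p of 0.136 and an adjusted p of 0.929. Haloperidol minus control was 0.19 ± 0.12 with all arrays and 0.29 ± 0.11 without control 3, where the unadjusted p was 0.0355 and the adjusted p 0.538. Clozapine minus control was -0.0018 ± 0.12, and its sign turned when the arrays were centred and, to 0.096, without control 3.

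With all arrays, 0 of 11 tested members had drug arrays that did not overlap with the control arrays, against 3.43% of all tested probe sets for clozapine and 21.7% for haloperidol. For clozapine 1.27% of all tested lay wholly above control and 2.16% wholly below. For haloperidol 2.29% lay wholly above and 19.4% wholly below. Without control 3, 2 members did not overlap for clozapine, Aqp4 (at) and Gja1 (r_at), both above control. Of all tested, 11.8% did not overlap in either direction and 4.95% lay wholly above control. For haloperidol 4 did not overlap, the same 2 and Sparcl1 above control and Aldoc below, against 33.1% in either direction. Here 7.38% of all tested lay wholly above control and 25.7% wholly below. An unadjusted p under 0.05 was then reached by 0 of 11 for clozapine and 2 of 11 for haloperidol, Gja1 (r_at) and Sparcl1, against 2.63% and 8.99% of all tested. Between clozapine and haloperidol it was reached by 0 of 11, against 2.39%. In all 3 comparisons 0 of 7453 probe sets passed at an adjusted p of 0.05 without that array.

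Control 3 carried the largest departure of the members as a set. The 8 genes averaged 0.505 above their 9-array means on control 3, against -0.18 to 0.046 on the other 8 arrays. Without Glul that value was 0.219, against -0.11 to 0.12 on the other arrays. Of the 11 tested probe sets, 5 had their highest value on control 3, against 13.4% of all tested, and 4 on haloperidol 2, against 7.78%. The lowest value was on control 2 for 4 of 11 and on control 3 for 0 of 11, against 7.22% and 22.4% of all tested. A separate list of 24 tested astrocyte genes averaged -0.036 on control 3. Of these 24 genes, 5 had their highest value on control 3 and 5 their lowest, so that list went both ways there.

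**Figure D3:**
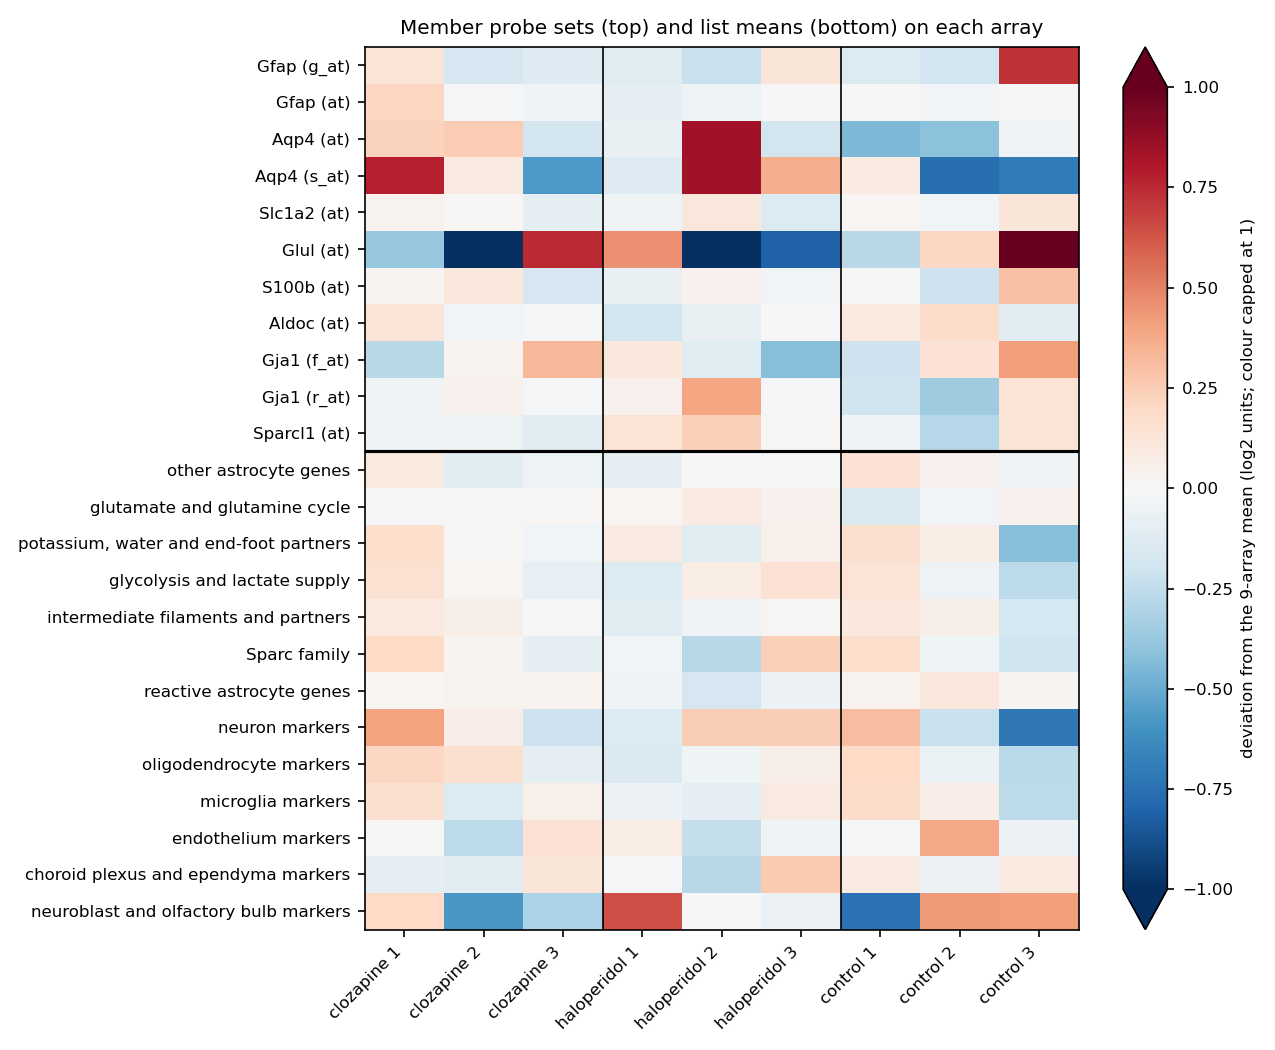
Deviation from the 9-array mean in log2 units, as colour capped at 1, with 1 column per array (clozapine, then haloperidol, then control). The upper rows are the 11 tested member probe sets and the lower rows are means of other gene lists and cell type markers. On control 3, Glul and Gfap (g_at) are the highest member rows, at 2.51 and 0.72, and neuron markers are at -0.717.

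The arrays differed in the gap between the 3′ and the 5′ ends of Actb and Gapdh on the Affymetrix control probe sets, a measure that grows as RNA is shortened from its 5′ end. The gap was 0.892, 1.13 and 1.14 log2 units on the clozapine arrays, 1.30, 0.868 and 0.814 on the haloperidol arrays and 0.882, 1.46 and 1.73 on the control arrays. Group means were 1.05 ± 0.14 for clozapine, 0.994 ± 0.266 for haloperidol and 1.36 ± 0.43 for control (SD, n = 3 each). Controls 2 and 3 had the largest gaps, and the groups overlapped. Over the 9 arrays, 3 of 11 member probe sets followed the gap after Benjamini-Hochberg adjustment over the 11 relations, by exact two-sided permutation tests. This test was not run over all tested probe sets, so the count cannot be set against a share of them. Correlations with the gap over all tested probe sets are given below.

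Gja1 (f_at) had a Pearson r of 0.86 with the gap, with an exact p of 0.00297 and an adjusted p of 0.0236, and a Spearman rho of 0.88 with an adjusted exact p of 0.0334. Without control 2 and control 3, the arrays farthest from the median gap, r was 0.82 with an exact p of 0.0202. Glul (at) had an r of 0.83, with an exact p of 0.00643 and an adjusted p of 0.0236, and a rho of 0.78 with an adjusted exact p of 0.0632. Without those arrays its r was 0.60 with an exact p of 0.164, over 7 arrays. Aqp4 (s_at) ran the other way, with an r of -0.82, an exact p of 0.00620 and an adjusted p of 0.0236, and a rho of -0.85 with an adjusted exact p of 0.0334. Its r without those arrays was -0.69 with an exact p of 0.0923. Without control 3 alone, r was 0.79 for Gja1 (f_at), 0.61 for Glul (at) and -0.81 for Aqp4 (s_at). The permutations shuffled arrays without regard to treatment, so these p-values cannot separate the gap from the treatment groups. Within a group there are 3 arrays, too few for a correlation. The other 8 member probe sets had r between -0.32 and 0.50 and did not pass.

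Over all tested probe sets the median absolute r with the gap was 0.49. An r at or above that of Gja1 (f_at) was held by 1.53% of tested probe sets, one at or above that of Glul by 2.40%, and one at or below that of Aqp4 (s_at) by 4.76%. The gap was also used as a covariate, chosen after the data were seen, which gives differences adjusted for the gap with their standard errors. The Glul difference was then -0.18 ± 0.61 for clozapine minus control and -0.35 ± 0.64 for haloperidol minus control. The differences of Aqp4 (s_at) became 0.14 ± 0.31 for clozapine and 0.32 ± 0.32 for haloperidol. Those of Aqp4 (at) were 0.42 ± 0.32 for clozapine and 0.52 ± 0.33 for haloperidol. Those of Gja1 (f_at) turned to 0.17 ± 0.14 for clozapine and 0.042 ± 0.15 for haloperidol. The part of RNA shortening in these differences was not tested beyond this.

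**Figure D4:**
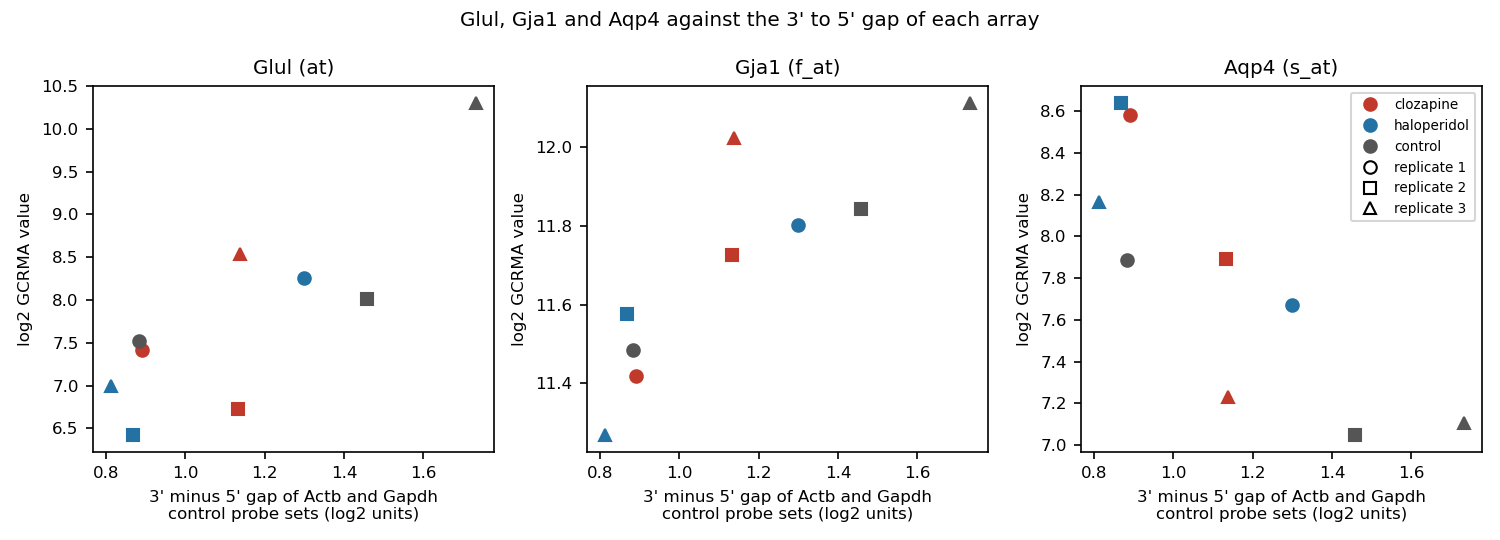
Log2 value against the gap between 3′ and 5′ control probe sets, in log2 units, for 3 member probe sets on the 9 arrays, 1 panel each. Colours are groups and shapes are replicate numbers. Glul and Gja1 (f_at) rise with the gap and Aqp4 (s_at) falls, with r of 0.83, 0.86 and -0.82.

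Genes of the pathways around the members were counted from lists, with 0 genes past the adjusted threshold in each list and comparison by limma. Of 34 other astrocyte genes, 24 were tested. With clozapine 9 were above control and 15 below, with a median of -0.055. With haloperidol 8 were above and 16 below, with a median of -0.089, and 4 of those below had an unadjusted p under 0.05, where 7.07% of all tested probe sets were lower at that level. Without control 3, the medians over all tested probe sets were -0.014 for clozapine and -0.052 for haloperidol. Those of these 24 genes were -0.14 for clozapine and -0.19 for haloperidol. Among them, Mt2, a metal-binding metallothionein, averaged 9.60 ± 0.034 with haloperidol and 9.90 ± 0.21 in controls (SD, n = 3), with an adjusted p of 0.530 in limma. Htra1, a secreted serine protease, averaged 8.55 ± 0.15 with haloperidol and 8.87 ± 0.13 in controls, with the same adjusted p. Fabp7, a fatty acid binding protein of glial precursors, averaged 9.58 ± 0.94 with clozapine, 10.59 ± 0.35 with haloperidol and 10.33 ± 0.53 in controls. The groups overlapped for Fabp7. Mfge8, a secreted protein that binds phosphatidylserine, averaged 8.20 ± 0.13 with clozapine, 8.08 ± 0.12 with haloperidol and 8.42 ± 0.22 in controls. Its haloperidol arrays lay wholly below the controls, with an unadjusted p of 0.0345 and an adjusted p of 0.530.

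Apoe, the lipid carrier, averaged 11.35 ± 0.28 with clozapine, 11.49 ± 0.31 with haloperidol and 11.33 ± 0.54 in controls. Clu, the chaperone clusterin, averaged 9.98 ± 0.14 with clozapine, 9.93 ± 0.44 with haloperidol and 9.86 ± 0.55 in controls. Mt3, the brain metallothionein, averaged 10.05 ± 0.22 with clozapine, 9.72 ± 0.11 with haloperidol and 9.92 ± 0.50 in controls. Control 3 was the lowest array for all 3 of these genes, with 10.72 for Apoe, 9.25 for Clu and 9.36 for Mt3. Glul and Gfap (g_at) went the other way there. Of the 24 other astrocyte genes tested, control 3 was the lowest array for 5 and the highest for 5. Of all tested probe sets, 22.4% were lowest and 13.4% highest on that array. Kcnj10 and Slc38a3 matched no probe set, and Nes was below the filter.

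Around the glutamate step, 8 of 20 listed genes were tested. With clozapine 5 were above control and 3 below, and with haloperidol 4 were above and 4 below, with medians of 0.029 for clozapine and 0.068 for haloperidol. The haloperidol count without control 3 was 5 above and 3 below. Slc38a2, a glutamine transporter, averaged 9.93 ± 0.38 with clozapine, 10.14 ± 0.069 with haloperidol and 9.60 ± 0.37 in controls. Its clozapine minus control difference of 0.33 was 0.50 without control 3. Haloperidol minus control was 0.54 ± 0.23, with an unadjusted p of 0.0440 and an adjusted p of 0.530. Gad1, which makes GABA from glutamate, averaged 12.34 ± 0.10 with clozapine, 12.52 ± 0.14 with haloperidol and 12.25 ± 0.17 in controls. Gad2, of the same function, averaged 7.09 ± 0.031 with clozapine and 7.29 ± 0.23 in controls, a difference of -0.19 that was -0.064 without control 3. Got2, the mitochondrial aspartate aminotransferase, averaged 3.71 ± 0.060 with clozapine and 3.59 ± 0.058 with haloperidol. None of these passed the adjusted threshold.

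Among potassium, water and end-foot partners of Aqp4, 7 of 13 genes were tested, with 3 above control and 4 below for clozapine and 4 above and 3 below for haloperidol. Without control 3 these counts were 2 above and 5 below for clozapine and 3 above and 4 below for haloperidol. Dag1, the dystroglycan that anchors the end-foot complex, averaged 6.69 ± 0.22 with clozapine, 6.93 ± 0.17 with haloperidol and 6.80 ± 0.046 in controls. Dmd, dystrophin, averaged 5.30 ± 0.26 with clozapine, 4.96 ± 0.34 with haloperidol and 5.36 ± 0.15 in controls. Atp1b2, a subunit of the sodium pump in glia, averaged 8.31 ± 0.73 with clozapine and 7.48 ± 2.05 in controls, and its difference of 0.83 became -0.32 without control 3. The 2 tested genes of the connexin list, which holds neither Gja1 nor Gjb6, were Gjb2 and Gjc1. Gjb2 averaged 6.82 ± 0.35 with clozapine, 7.06 ± 0.30 with haloperidol and 7.04 ± 0.27 in controls, and without control 3 its difference from control was -0.35 for clozapine and -0.11 for haloperidol. Gjc1 averaged 5.04 ± 0.065 with clozapine, 4.90 ± 0.13 with haloperidol and 5.10 ± 0.091 in controls. Gjb6, the other connexin of mature astrocytes, averaged 6.68 ± 0.078 with clozapine, 6.60 ± 0.046 with haloperidol and 6.56 ± 0.20 in controls.

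In glycolysis and lactate supply, the pathway of Aldoc, 15 of 19 genes were tested. With clozapine 11 were above control and 4 below, with a median of 0.063. With haloperidol 10 were above and 5 below, with a median of 0.098. Without control 3 each count became 5 above and 10 below, with medians of -0.021 for clozapine and -0.062 for haloperidol, and control 3 was the lowest array for 6 of the 15. Aldoa, the aldolase of most tissues, averaged 11.24 ± 0.0027 with clozapine, 11.17 ± 0.078 with haloperidol and 11.26 ± 0.021 in controls. Slc16a1, a lactate transporter, averaged 4.16 ± 0.12 with haloperidol and 4.40 ± 0.079 in controls, with an unadjusted p of 0.0285 and an adjusted p of 0.530 in limma. Its 9-array average was low, at 4.28, and 7.07% of all tested probe sets were lower with haloperidol at an unadjusted p under 0.05. Ldhb, a lactate dehydrogenase subunit, averaged 9.32 ± 0.30 with clozapine, 9.85 ± 0.46 with haloperidol and 9.32 ± 0.55 in controls. Slc2a1, the glucose transporter of the blood-brain barrier, averaged 6.17 ± 0.12 with clozapine and 5.97 ± 0.082 in controls. Pygb, the brain glycogen phosphorylase, averaged 7.93 ± 0.11 with clozapine and 7.72 ± 0.25 in controls, a difference of 0.22 that was 0.076 without control 3.

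Of 13 intermediate filament genes and partners, 8 were tested, with 4 above control and 4 below for clozapine and 3 above and 5 below for haloperidol, with medians of 0.0028 for clozapine and -0.13 for haloperidol. Leaving out control 3 gave 1 above and 7 below for haloperidol, with a median of -0.17. Lmna, a nuclear lamin, averaged 7.58 ± 0.28 with clozapine, 7.66 ± 0.37 with haloperidol and 7.18 ± 0.51 in controls. Its differences of 0.40 for clozapine and 0.48 for haloperidol were 0.11 and 0.19 without control 3. Nefm, a neurofilament subunit, averaged 8.03 ± 0.23 with clozapine and 7.82 ± 0.33 in controls, a difference of 0.21 that was 0.045 without control 3. Krt18, a keratin, averaged 4.25 ± 0.10 with clozapine, 4.12 ± 0.040 with haloperidol and 4.28 ± 0.097 in controls. Prph, peripherin, averaged 4.35 ± 0.083 with clozapine and 4.16 ± 0.21 with haloperidol. Of 7 genes of the Sparc family of matrix proteins, 6 were tested, with 5 above control and 1 below for clozapine and 3 above and 3 below for haloperidol. Leaving out control 3 gave 3 above and 3 below for clozapine and 2 above and 4 below for haloperidol. Sparc averaged 10.09 ± 0.40 with clozapine, 10.16 ± 0.40 with haloperidol and 9.85 ± 0.16 in controls. Smoc1 averaged 5.59 ± 0.057 with clozapine and 5.54 ± 0.074 in controls, and Fstl1 averaged 5.23 ± 0.13 with haloperidol and 5.15 ± 0.089 in controls. Smoc2 averaged 3.91 ± 0.060 with clozapine and 3.84 ± 0.011 with haloperidol. Spock1 averaged 7.13 ± 0.14 with clozapine and 6.79 ± 1.02 with haloperidol.

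Of 22 genes known to rise in reactive astrocytes, 10 were tested. With clozapine 4 were above control and 6 below, with a median of -0.010. With haloperidol 2 were above and 8 below, with a median of -0.16, and 3 of those below had an unadjusted p under 0.05, against 7.07% of all tested. Between clozapine and haloperidol 8 were above and 2 below, with a median of 0.12, and 1 of those above, Lcn2, had an unadjusted p under 0.05, against 2.98% of all tested. Lcn2, a secreted lipocalin, averaged 3.93 ± 0.099 with clozapine, 3.65 ± 0.16 with haloperidol and 3.92 ± 0.037 in controls, and haloperidol minus control had an adjusted p of 0.530. Cxcl10, a chemokine, averaged 3.86 ± 0.11 with haloperidol and 4.11 ± 0.046 in controls. Cd44, a matrix receptor, averaged 3.52 ± 0.10 with clozapine and 3.32 ± 0.11 with haloperidol. The 9-array averages of Lcn2, Cxcl10 and Cd44 were 3.83, 4.01 and 3.46, near the filter value, below which most probe sets had haloperidol wholly under control. Got2, Smoc2, Krt18 and Slc16a1 of the lists above also had low averages, 3.67, 3.88, 4.21 and 4.28, and haloperidol wholly under control. Serpina3n, a protease inhibitor, averaged 5.01 ± 0.16 with clozapine, 4.92 ± 0.16 with haloperidol and 5.07 ± 0.024 in controls. Cp, ceruloplasmin, averaged 4.24 ± 0.59 with clozapine and 4.52 ± 0.52 in controls, a difference of -0.28 that was -0.15 without control 3. H2-D1, a class I histocompatibility gene, averaged 6.85 ± 0.48 with clozapine and 6.64 ± 0.40 in controls, a difference of 0.21 that was -0.011 without control 3.

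Genes whose pattern over the 9 arrays was most like the mean deviation of the 8 members were Vcan with an r of 0.953, Aktip with 0.952, Cd93 with 0.946, Birc6 with 0.940 and Sfmbt2 with 0.939. On deviations from the group means they were Birc6 with 0.977, 1110059E24Rik with 0.973, Zfp62 with 0.964, Aktip with 0.964 and Zic2 with 0.958. The points share the arrays and their normalization, and control 3 is far from the others on the members' axis, so these correlations are descriptions.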

How the data were processed

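The samples were total RNA from the forebrain of 9 mice, 3 per treatment, grouped by array title. The labels disagree on the hemisphere, right in the titles and left in the tissue entry. The deposited values are log2 values, one per probe set, that the authors computed using GCRMA, as the submitters' processing notes say. Its version is not given in the sources used here. GCRMA pulls dim probe sets towards a narrow floor.

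Of 12488 probe sets, 66 were controls and entered no test. Of the other 12422, 10833 had 1 symbol in the platform annotation, 396 several and 1193 none, and RefSeq's GRCm38.p6 table held 10817 of the 10833. Probe sets above the 40th percentile of the 9-array average were tested with limma 3.58.1 in R 4.3.3, on all 9 arrays with 1 mean per treatment, with 6 residual and 2.03 prior degrees of freedom. P-values were two-sided and adjusted by Benjamini-Hochberg over 7453 probe sets, at a threshold of 0.05, and the fit was tested on simulated data. The number of arrays limits the precision. Residual correlations of same-numbered arrays ran from -0.597 to 0.697, and nothing in the labels says what the replicate number marks. These correlations cannot show whether it marks a shared litter or day, and it was not used to pair samples in the main fit. With 3 arrays a group, exact permutation p-values between groups have a floor of 0.1.

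The members, the lists and the rules were chosen with earlier results of these data known. Named were all members, the 2 genes with the lowest unadjusted p of each list and comparison and 12 fixed genes, some of which are not reported here. Alternatives covered filter, scaling, prior, the replicate number as a block and each array left out.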

Additional observations from a re-analysis of the deposited data

How the results depend on the processing

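Over 18 settings, 0 of 1314 alternative values of the 81 named differences passed the adjusted threshold, and the lowest adjusted p was 0.282. The sign turned in at least 1 alternative for 25 differences. The count of members above was 1 for clozapine minus control, and became 2 with centred arrays, with quantile normalization and with probe sets averaged. It was 2 for haloperidol minus control and 4 with centred arrays, and 6 for clozapine minus haloperidol and 3 with centred arrays. Leaving out each array in turn gave 1 to 5, 2 to 4 and 3 to 6. The replicate number as a block left 0 probe sets called in each comparison. Probe sets with an unadjusted p under 0.05 then numbered 60, 665 and 333, against 70, 680 and 271 without it, for clozapine against control, for haloperidol against control and for the drugs against each other. With no filter they were 106, 1944 and 2061, and with a filter at the 60th percentile 36, 182 and 30. Quantile normalization gave 107 and a trended robust prior 585 for clozapine minus haloperidol. Leaving out arrays gave 39 to 196, 161 to 752 and 37 to 445.

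Signs that turned with centred arrays were those of Sparcl1 at 0.0025 for clozapine minus control, and S100b at 0.054, Gfap (at) at 0.069 and Slc1a2 at 0.047 for haloperidol minus control. For clozapine minus haloperidol they were S100b at -0.093, Gfap (at) at -0.0018, Gfap (g_at) at -0.081, Slc1a2 at -0.098 and Smoc2 at -0.032. With quantile normalization they were Sparcl1 at 0.041 for clozapine minus control, Gjb2 at -0.036 for haloperidol minus control, and Got2 at -0.0031 and Smoc2 at -0.043 for clozapine minus haloperidol. With the 3′ to 5′ gap as a covariate, added after the data were seen, they were Gja1 (f_at) at 0.17 and Sparcl1 at 0.020 for clozapine minus control. The same setting gave Gja1 (f_at) at 0.042 for haloperidol minus control, and Gfap (g_at) at -0.0076 and Slc1a2 at -0.00095 for clozapine minus haloperidol.

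Leaving out each array turned further signs, given as ranges. For clozapine minus control these were Aldoc from -0.11 to 0.038, Atp1b2 from -0.32 to 1.66, Dag1 from -0.19 to 0.020, Gfap (at) from -0.017 to 0.11, Gfap (g_at) from -0.35 to 0.11, Gja1 (f_at) from -0.25 to 0.062, H2-D1 from -0.065 to 0.38, S100b from -0.16 to 0.088 and Sparcl1 from -0.11 to 0.096. For haloperidol minus control they were Gfap (g_at) from -0.37 to 0.088, Gjb2 from -0.13 to 0.17, S100b from -0.17 to 0.082 and Slc1a2 from -0.12 to 0.0021. For clozapine minus haloperidol they were Aqp4 (s_at) from -0.60 to 0.078, Aqp4 (at) from -0.28 to 0.23, Gfap (g_at) from -0.075 to 0.12, Glul (at) from -0.15 to 0.86, S100b from -0.050 to 0.083, Slc1a2 from -0.057 to 0.069 and Spock1 from -0.22 to 0.78. The cause was not tested.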
